A study of Mus musculus with 12 samples.

Results

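The connexin genes Gja1, Gja3, Gja4, Gja5, Gjb2, Gjb6 and Gjc1 were followed through mouse forelimb buds that lacked Hand2 or Tbx3 and through the wild types of both series. These 7 genes were matched by Ensembl identifier and symbol among the 53465 genes of the files. The mouse annotation names 13 other connexin genes, so they are 7 of 20. They were picked with their changes in the Tbx3 and Hand2 comparisons already known. Their values in those comparisons are therefore a description, and whether a gene passed the threshold there supports nothing further.

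Bulk RNA was sequenced from 12 pairs of forelimb buds of Swiss albino embryos, 3 per group and 1 pair per library. The group Tbx3_WT was wild type and Tbx3_del was Tbx3ΔVenus/ΔVenus. Both had 28 to 31 somites, a stage labelled E9.75 to E10. In that allele a Venus reporter and a transcription stop with polyadenylation sequence sit at the Tbx3 start codon. The group Hand2_WT was Prrx1-Cre;Hand2+/+ and Hand2_del was Prrx1-Cre;Hand2Δ/Δc. Both had 31 to 33 somites, a stage labelled E10 to E10.25. Prrx1-Cre acts in the limb bud mesenchyme, and Hand2_WT carries it as well. The stage, the colony, the Cre and the sequencing depth all differ between both series, so a difference between series cannot be assigned to one of them. The labels say that replicates are separate bud pairs and do not name litters.

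Connexins are membrane proteins that assemble into hemichannels. Hemichannels of neighbouring cells dock to form gap junctions, through which ions and small metabolites pass. Gja1 encodes Cx43, the most widely expressed family member, which is present in limb mesenchyme and in the ectodermal ridge. Gjc1 encodes Cx45, known from early heart, vessel walls and neurons. Gja4 (Cx37) and Gja5 (Cx40) are the classical connexins of arterial endothelium. Gja3 (Cx46) is best known from the lens, and Gjb2 (Cx26) and Gjb6 (Cx30) from epithelia and the inner ear.

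Gja3, Gjb2 and Gjb6 lie side by side on the minus strand of chromosome 14, within 99.2 kb (GRCm38). Gja3 spans 57034460 to 57058100, Gjb2 spans 57098600 to 57104702 and Gjb6 spans 57123303 to 57133611. The bases upstream of their start sites are shown because these neighbours did not move together in the Hand2 series. They are RefSeq sequences of GRCm38.p6, 5′ to 3′ on the gene's strand. The Gja3 sequence stops at the first base of its annotated first exon. Capitals mark the motif CANNTG, the general E-box that basic helix-loop-helix factors such as HAND2 recognise.
Gja3 (chr14:57058101-57058280, - strand): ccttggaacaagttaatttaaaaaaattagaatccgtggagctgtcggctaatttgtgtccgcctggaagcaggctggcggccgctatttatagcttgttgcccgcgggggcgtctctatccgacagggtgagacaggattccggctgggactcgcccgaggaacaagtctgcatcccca
Gjb2 (chr14:57104703-57104952, - strand): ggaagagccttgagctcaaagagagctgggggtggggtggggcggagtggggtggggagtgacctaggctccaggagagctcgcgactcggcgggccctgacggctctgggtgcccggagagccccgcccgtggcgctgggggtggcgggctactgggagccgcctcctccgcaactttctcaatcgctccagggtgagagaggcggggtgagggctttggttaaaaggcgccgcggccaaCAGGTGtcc
Gjb6 (chr14:57133612-57133861, - strand): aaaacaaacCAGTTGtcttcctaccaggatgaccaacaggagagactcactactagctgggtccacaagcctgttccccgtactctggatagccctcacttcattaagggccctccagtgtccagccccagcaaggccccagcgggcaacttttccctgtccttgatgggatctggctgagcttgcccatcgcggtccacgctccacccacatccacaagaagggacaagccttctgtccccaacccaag

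The corresponding sequences of Gja4, on chromosome 4 from 127311421 to 127314039, and Gja5, on chromosome 3 from 96904693 to 97077416, are shown because these arterial genes lay on the same side of their wild types in each series. The Gja5 window lies inside the annotated span of the gene: it precedes the start of its shorter transcripts and falls in an intron of the longest one.
Gja4 (chr4:127314040-127314289, - strand): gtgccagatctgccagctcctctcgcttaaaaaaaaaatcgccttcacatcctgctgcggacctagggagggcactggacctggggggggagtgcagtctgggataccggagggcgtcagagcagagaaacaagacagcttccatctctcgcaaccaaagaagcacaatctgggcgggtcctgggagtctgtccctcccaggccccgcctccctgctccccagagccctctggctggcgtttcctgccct
Gja5 (chr3:97032152-97032401, + strand): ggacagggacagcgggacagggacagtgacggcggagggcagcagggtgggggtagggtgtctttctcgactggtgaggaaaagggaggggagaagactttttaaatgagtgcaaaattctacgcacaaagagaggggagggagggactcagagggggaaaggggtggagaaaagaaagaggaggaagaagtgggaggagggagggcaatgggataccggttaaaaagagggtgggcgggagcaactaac

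The table of promoters held 7 windows for 6 of the 7 members, 2 of them for Gja3, and none for Gjc1. Each window was searched over the 250 bases before the start, on both strands, for 4 motifs. The T-box core GGTGTGA, the E-box form CATCTG and the low-oxygen response core ACGTG had no match in any of the 7 windows. Of 32851 windows in the table, 3.33% held the first, 14.4% the second and 16.6% the third. CANNTG was searched after these 3 had given no match, and it includes CATCTG. It occurs in 66.2% of all windows. It was found once in Gja1, Gjb2 and Gjb6 and 3 times in the second Gja3 window, which runs into an annotated exon and is not printed. Neither Gja4 nor Gja5 holds it in these bases. A match is a run of letters and not a site shown to be bound.

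Libraries of the Tbx3 series held 23.3 to 31.8 M counts each, and those of the Hand2 series 60.2 to 68.6 M. Hand2_del replicate 1 stood apart, with 5.37% of its counts on CT010467.1, while the leading gene of the other 11 libraries, Eef1a1, took 0.897% to 1.01%. Levels are given as CPM, TMM-scaled over the 12 libraries. Hand2 itself was at 121 ± 3.46 CPM in Hand2_WT and 0.922 ± 1.11 CPM in Hand2_del (mean ± SD, n = 3 here and below). Tbx3 was at 78.6 ± 0.551 CPM in Tbx3_WT and 78.0 ± 3.86 CPM in Tbx3_del, so the count does not check this allele, and Tbx3_del names libraries by label. All 3 Tbx3_WT embryos were female by Xist and Y-linked genes, while Tbx3_del replicates 1 and 2 were male. The Hand2 series held both sexes in each group.

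Gja3 fell about 4.05-fold in Hand2-deficient buds and Gjc1 fell 1.66-fold, to its level in the Tbx3 series. The arterial pair Gja4 and Gja5 was higher in Hand2_del and lower in Tbx3_del than in the wild types, with no overlap between libraries in any of these 4 comparisons. Gjb2 and Gjb6 ranked the libraries of a group nearly alike. Gja1, the most abundant by count, lay slightly lower in both mutants.

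**Figure D1:**
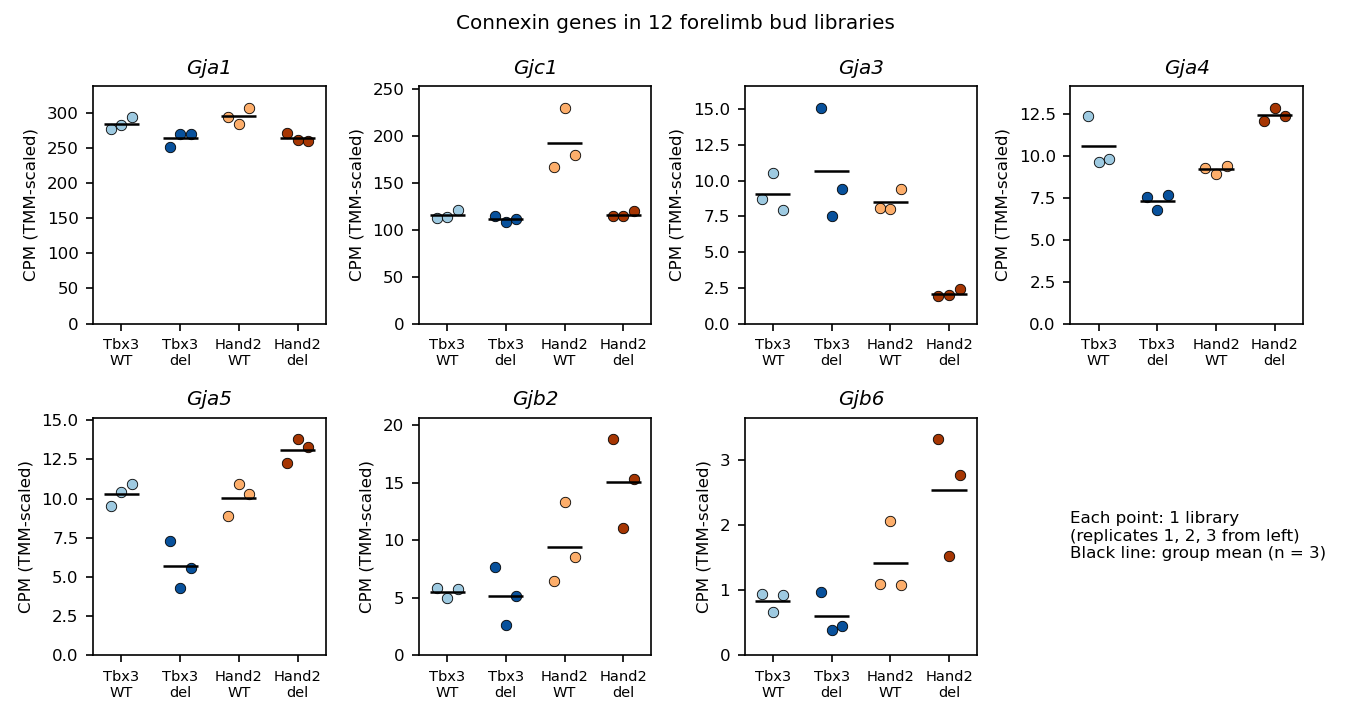
Level of each of the 7 connexin genes (vertical axis, TMM-scaled CPM from 0) in the 12 libraries, grouped along the horizontal axis, with 1 point per library and the mean of 3 as a black line. Gja3 is low in Hand2_del alone, Gjc1 is high in Hand2_WT alone, and Gja4 and Gja5 are low in Tbx3_del and high in Hand2_del.

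All 7 genes were abundant enough to be tested in every comparison. In Tbx3_del against Tbx3_WT none of the 7 was called by edgeR's quasi-likelihood test at an adjusted p under 0.05, where 1.01% of 15130 genes were called (0.727% higher and 0.284% lower). At an unadjusted p under 0.05 edgeR had 2 of the 7, DESeq2 called 2 and limma-voom 0. Over all genes DESeq2 called 551 of 27863 and limma-voom 99 of 15130. The share of all genes at an unadjusted p under 0.05 was not computed. Nothing is therefore read from counts at an unadjusted p, here or for the lists below. Gja1, Gja4 and Gja5 did not overlap between groups and were lower in all 3 Tbx3_del libraries, and 20.4% of all genes tested did not overlap (10.5% higher and 9.91% lower). In Hand2_del against Hand2_WT 3 of the 7 were called, Gja4 higher and Gja3 and Gjc1 lower, where 10.5% of 17488 genes were called (4.68% higher and 5.82% lower). Of the members 5 did not overlap, with Gja4 and Gja5 higher and Gja1, Gja3 and Gjc1 lower, against 38.1% of all genes (18.8% higher and 19.3% lower). Since the members were picked on these contrasts, nothing is read from their counts. The median log2 fold change of the 7 was -0.109 in the Tbx3 comparison and 0.389 in the Hand2 comparison, and that of all genes tested was -0.00299 and 0.0128.

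**Figure D2:**
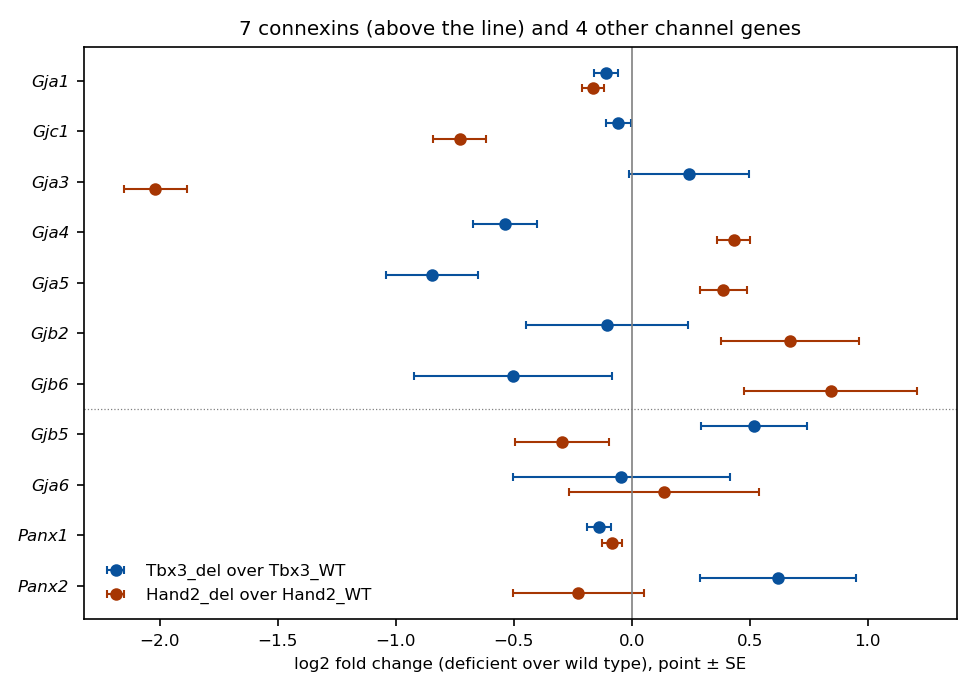
Log2 fold change with its SE (horizontal axis) for the 7 connexins above the dotted line and for 4 other connexin and pannexin genes that were tested, in Tbx3_del over Tbx3_WT (blue) and Hand2_del over Hand2_WT (brown). Gja4 and Gja5 lie on opposite sides of 0 in the 2 comparisons, and Gja3 at -2.02 is the farthest from 0.

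Levels between genes were compared per kilobase of exons (exon union). Gja1 and Gjc1 led in each group. Per kilobase Gja1 was at 27.8, 25.8, 28.9 and 25.8 CPM in Tbx3_WT, Tbx3_del, Hand2_WT and Hand2_del, and Gjc1 at 23.1, 22.2, 38.4 and 23.2 CPM. The libraries of both genes did not overlap in any group, with Gja1 first in 3 groups and Gjc1 first in Hand2_WT. The exon union of Gja1 adds up to 10257 bases, far more than its median coding transcript of 3126 bases, a length chosen after these values were seen. On that length Gja1 was at 91.2, 84.5, 94.7 and 84.6 CPM per kilobase and Gjc1 at 60.7, 58.4, 101 and 60.9, and their Hand2_WT libraries overlapped. Gjc1 had the higher mean of the pair in Hand2_WT on both lengths, but the libraries stood apart on the exon union alone. On the exon union Gja1 and Gjc1 together made up 66.5% to 75.7% of the summed level per kilobase of all 20 connexins. This share depends on the length used and was not computed on coding transcripts.

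Gja4 came next in all 4 groups, at 6.31, 4.35, 5.47 and 7.39 CPM per kilobase of exons. On the exon union the order in Tbx3_WT went on with Gja3 (3.05), Gjb2 (2.29), Gja5 (1.79) and Gjb6 (0.314), and no neighbours in that order overlapped. On median coding transcripts Gja5 (3.03) overlapped Gja3 (3.27) in Tbx3_WT and lay above Gjb2 (2.29) without overlap. The place of Gja5 there depends on the length used. The orders that follow are on the exon union. In Tbx3_del the libraries of Gja4 and Gja3 overlapped, as did those of Gja3 and Gjb2 and those of Gjb2 and Gja5. In Hand2_WT Gjb2 (3.92) came before Gja3 (2.87) and Gja5 (1.75), with Gja4, Gjb2 and Gja3 overlapping their neighbours. In Hand2_del Gja3 (0.707) was last, its libraries overlapping those of Gjb6 (0.951), while Gjb2 (6.25) overlapped Gja4.

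Gja1 was at 278, 283 and 294 CPM in Tbx3_WT and at 252, 270 and 271 CPM in Tbx3_del. In the Hand2 series it was at 295, 284 and 308 CPM in Hand2_WT and at 272, 262 and 260 CPM in Hand2_del. All deficient libraries lay below all wild types of their own series. The log2 fold change was -0.11 (SE 0.0521) in the Tbx3 comparison and -0.16 (SE 0.0461) in the Hand2 comparison, and neither was called. These are small steps of 1.08-fold and 1.12-fold in a gene with 20618 to 58903 counts summed over a group. The second was called by DESeq2 and in a fit of all 12 libraries.

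Gja3 was at 8.11, 7.98 and 9.38 CPM in Hand2_WT and at 1.89, 1.96 and 2.44 CPM in Hand2_del. These rest on 514 to 624 counts per wild-type library and 112 to 166 per deficient one. The groups stood far apart. The log2 fold change was -2.02 (SE 0.135), and the call held under all 13 alternatives, from -2.14 to -1.94. Gja3 was at 8.68, 10.5 and 7.94 CPM in Tbx3_WT and at 15.1, 7.51 and 9.41 CPM in Tbx3_del. These groups overlapped, with Tbx3_del replicate 1 high. Their log2 fold change of 0.24 (SE 0.254) turned to -0.095 without that library. All 3 Hand2_del libraries lay below each of the other 9.

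The genes near Gja3 were called about as often as all genes. Within 1 Mb of Gja3, a window chosen after its fall was seen, 24 other genes were tested in the Hand2 comparison, and Xpo4 (-0.31, SE 0.0615) was called lower and 2410022M11Rik (0.78, SE 0.184) higher, 8.33% against 10.5% of all genes. Their median log2 fold change was -0.0104. Gjb2, which starts 46.6 kb from the Gja3 start, lay on the opposite side of 0, as did Gjb6 (below). A list of ectodermal ridge genes summed to 236 to 265 CPM in Hand2_WT and 218 to 261 CPM in Hand2_del. The 12 genes of this list had a median log2 fold change of -0.0429. Of them 5 were lower and 0 higher without overlap, where 19.3% and 18.8% of all genes were. The most abundant were Bmp4, at 55.7 and 56.9 CPM, and Msx2, at 52.4 and 68.0 CPM, both with overlap and no call. Among the 12, Fgf8, Fgf4 and Fgf9 were called lower, 3 of 12, where 5.82% of all genes were. Fgf8 went from 44.0 to 26.2 CPM (-0.75, SE 0.109) and Fgf4 from 2.46 to 0.461 CPM (-2.41, SE 0.467), while Fgf9, which lies just outside that window and 966 kb from Gjb2, went from 1.62 to 0.763 CPM (-1.08, SE 0.21). The Fgf8 call ended without Hand2_WT replicate 3 (-0.71), and those of Fgf4 (-2.53 to -2.29) and Fgf9 (-1.17 to -1.04) without that library or any one Hand2_del library. That of Xpo4 ended without replicate 1 or 3 of either group (-0.31 to -0.28) and that of 2410022M11Rik without any one of the 6 libraries (0.66 to 0.92). The part of these ridge genes in the Gja3 result was not tested.

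Gja4 was at 9.31, 8.93 and 9.43 CPM in Hand2_WT and at 12.1, 12.9 and 12.4 CPM in Hand2_del. It was at 12.4, 9.62 and 9.85 CPM in Tbx3_WT and at 7.53, 6.77 and 7.66 CPM in Tbx3_del. Each mutant group lay wholly outside its wild types, above them for Hand2 and below them for Tbx3. The log2 fold change was 0.43 (SE 0.0699, called) in the Hand2 comparison and -0.54 (SE 0.137, not called) in the Tbx3 comparison. The Hand2 call ended without Hand2_WT replicate 1 or 3 and without Hand2_del replicate 1, the library with the odd top gene, or 3, where the log2 fold change was 0.44 to 0.45. The Tbx3 value was called by DESeq2 and in a fit of all 12 libraries. With embryo sex as a covariate it was -0.47 (SE 0.212), not called.

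Gja5 was at 8.87, 10.9 and 10.3 CPM in Hand2_WT and at 12.3, 13.8 and 13.3 CPM in Hand2_del. It was at 9.54, 10.4 and 10.9 CPM in Tbx3_WT and at 7.29, 4.29 and 5.58 CPM in Tbx3_del. The groups did not overlap in either series. The log2 fold change was 0.39 (SE 0.0993) in the Hand2 comparison and -0.85 (SE 0.195) in the Tbx3 comparison, neither called. The first was called by DESeq2, limma-voom and without Hand2_WT replicate 2, at 0.38 to 0.45. The second was called by DESeq2, without a filter on low counts, in a fit of all 12 libraries and without Tbx3_del replicate 1, where it was -1.06. With embryo sex as a covariate the Tbx3 value was -0.88 (SE 0.309), not called. The female Tbx3_del library, replicate 3, was at 5.58 CPM, below the 3 female wild types. This is 1 library and does not separate embryo sex from the allele.

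Some reads of the Gja5 model could belong to other genes. Its annotated exons share 165 bases, 2.87%, with Gpr89 on the other strand, and 13.9% of its 31-base words also occur in Zfp697 transcripts. Gpr89 was at 33.1 to 35.5 CPM over the 12 libraries. Zfp697 averaged 18.6 CPM in Tbx3_WT, 17.8 in Tbx3_del, 22.8 in Hand2_WT and 19.5 in Hand2_del. The part of shared sequence in the Gja5 values was not tested. The other 6 members shared under 0.5% of their words with any one gene.

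General endothelial markers were followed beside the arterial pair. A list of 14 general endothelial markers summed to 432 to 440 CPM in Hand2_WT and 459 to 499 CPM in Hand2_del. Of the 14, 8 did not overlap and were higher, where 18.8% of all genes were. By edgeR 1 was called higher, Cdh5 (0.16, SE 0.0384), where 4.68% of all genes were. DESeq2, which called 3491 genes in this comparison, called 4 of the 14, and limma-voom 0. In the Tbx3 series the sum was 453 to 494 CPM in Tbx3_WT and 456 to 529 CPM in Tbx3_del, and none of 14 was called by edgeR, where 4 had an unadjusted p under 0.05, DESeq2 called 2 and limma-voom 0. In bulk buds a change in the number of endothelial cells and a change in RNA per endothelial cell cannot be told apart. As a share of the endothelial sum, a measure chosen after the levels were seen, Gja4 was 2.08% to 2.51% in Tbx3_WT and 1.28% to 1.65% in Tbx3_del. It was 2.04% to 2.18% in Hand2_WT and 2.5% to 2.63% in Hand2_del. Gja5 was 1.93% to 2.3%, 0.812% to 1.6%, 2.02% to 2.49% and 2.68% to 2.78% in the same order. Neither gene's shares overlapped between a mutant and its wild type. The pair was picked on these changes, so the shares are a description.

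**Figure D3:**
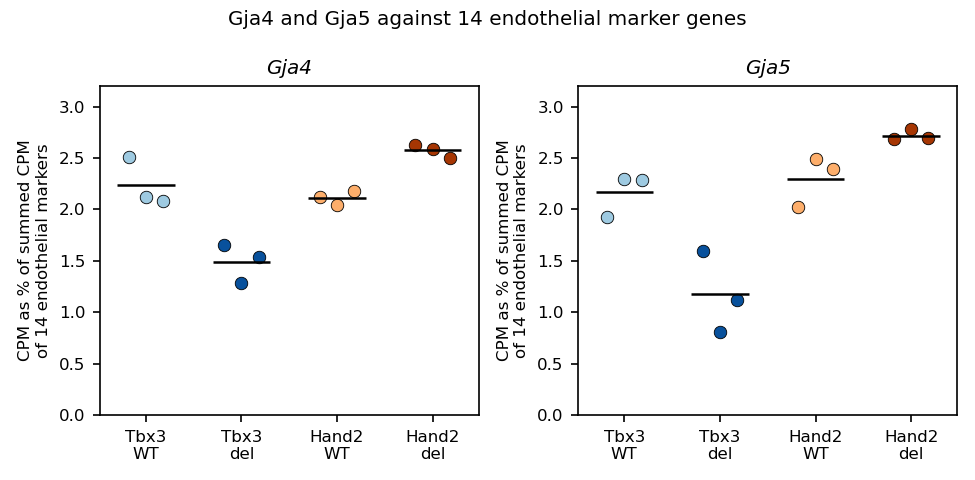
Gja4 (left) and Gja5 (right) as a percentage of the summed CPM of 14 endothelial marker genes (vertical axis, from 0) in each library of the 4 groups, with the mean of 3 as a black line. Tbx3_del lies below its wild types, at 1.65% or less, and Hand2_del above its own, at 2.5% or more.

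The arterial list of 10, which counts Gja4 and Gja5, summed to 412 to 431 CPM in Hand2_WT and 442 to 483 CPM in Hand2_del, and to 395 to 415 CPM in Tbx3_WT and 366 to 375 CPM in Tbx3_del. Without Gja4 and Gja5, a sum chosen after the values were seen, the other 8 were at 393 to 412 against 415 to 458 CPM in the Hand2 series and at 374 to 393 against 355 to 362 CPM in the Tbx3 series. Neither sum overlapped between a mutant and its wild type, and both lay on the same side as Gja4 and Gja5. Most of each sum was Efnb2 and Unc5b, so it says little about the scarcer genes of the list. In the Hand2 comparison 6 of the 10 genes were higher without overlap, Efnb2, Nrp1, Unc5b and Sox17 beside the pair, where 18.8% of all genes were. Nrp1 went from 39.9 to 45.2 CPM, Unc5b from 129 to 144 CPM and Sox17 from 5.4 to 6.29 CPM, none called. Hey1 was called lower in Hand2_del, from 32.0 to 24.5 CPM (-0.39, SE 0.0909). Efnb2, the most abundant, went from 182 to 198 CPM without a call, and Dll4 was at 10.2 and 10.3 CPM. Hey2 went from 3.21 to 2.49 CPM and Bmx from 0.391 to 0.755 CPM, both with overlap and no call. Of 9 tested in the Tbx3 comparison edgeR called 0, with 3 at an unadjusted p under 0.05, against 2 in DESeq2 and 0 in limma-voom, with Efnb2 at 187 and 178 CPM and Unc5b at 119 and 105 CPM. Nrp1 and Unc5b were lower there without overlap, beside the pair. Markers of mural cells, which wrap vessels, summed to 129 to 142 CPM in Hand2_WT and 167 to 180 CPM in Hand2_del. Most of this sum was Pdgfrb, at 122 CPM in Hand2_WT and 151 CPM in Hand2_del. Pdgfrb (0.30, SE 0.056), Cspg4 (0.92, SE 0.205) and Abcc9 (3.15, SE 0.278) were called higher there, 3 of 6 tested, where 4.68% of all genes were. The others tested, Acta2, Tagln and Rgs5, overlapped between both groups and were not called. The Cdh5 call ended without any one of the 6 libraries (0.14 to 0.19) and those of Hey1 and Cspg4 without any one of 5, which were all but Hand2_WT replicate 1 for Hey1 (-0.40 to -0.33) and all but Hand2_WT replicate 2 for Cspg4 (0.73 to 1.02). That of Pdgfrb ended without replicate 1 or 3 of either group (0.25 to 0.31), and that of Abcc9 held. All 12 low-oxygen response genes tested were higher in the 3 Tbx3_del libraries than in the 3 wild types, where 10.5% of all genes were. By edgeR 10 of the 12 were called higher, where 0.727% of all genes were. Their list summed to 4620 to 6500 CPM in Tbx3_del against 3190 to 3620 CPM in Tbx3_WT. The part of mural cells and of the low-oxygen genes in the Gja4 and Gja5 values was not tested.

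Gjb2 was at 5.8, 4.98 and 5.71 CPM in Tbx3_WT and at 7.69, 2.61 and 5.1 CPM in Tbx3_del. It was at 6.47, 13.3 and 8.54 CPM in Hand2_WT and at 18.8, 11.1 and 15.3 CPM in Hand2_del. Both pairs of groups overlapped, and replicates of 1 group differed by up to 2.95-fold. The log2 fold change was -0.11 (SE 0.343) in the Tbx3 comparison and 0.67 (SE 0.291) in the Hand2 comparison. Neither was called, and the first turned to 0.22 without Tbx3_del replicate 2.

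Gjb6 was scarce, at 12 to 24 counts per library in the Tbx3 series and 69 to 198 in the Hand2 series. It was at 0.945, 0.656 and 0.92 CPM in Tbx3_WT and at 0.977, 0.382 and 0.446 CPM in Tbx3_del. It was at 1.09, 2.07 and 1.08 CPM in Hand2_WT and at 3.33, 1.52 and 2.78 CPM in Hand2_del. These groups overlapped too, with log2 fold changes of -0.50 (SE 0.42) and 0.84 (SE 0.367) and no call. With these SEs a p that misses the threshold does not show that Gjb6 was alike in the groups.

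The libraries ranked nearly alike in both genes. Hand2_WT replicate 2 was the highest of its group for Gjb2 and for Gjb6, and Hand2_del replicate 2 the lowest of its own. Tbx3_del replicate 1 was the highest and replicate 2 the lowest of that group for both. Both genes lie 18.6 kb apart and share no 31-base word in their annotated transcripts. As a share of 14 limb ectoderm markers, which summed to 409 to 448 CPM in Hand2_WT and 377 to 422 CPM in Hand2_del, Gjb2 was 1.56%, 2.97% and 2.09% in Hand2_WT and 4.45%, 2.93% and 3.67% in Hand2_del. Those shares overlapped by 1 library.

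**Figure D4:**
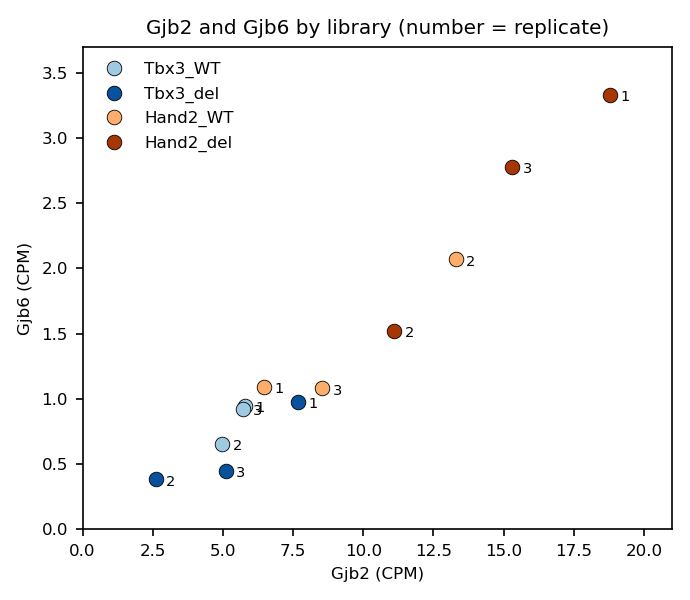
Gjb6 (vertical axis, CPM) against Gjb2 (horizontal axis, CPM) in the 12 libraries, coloured by group and numbered by replicate. Libraries with more Gjb2 mostly had more Gjb6, and Hand2_WT replicate 2 lies among the Hand2_del libraries.

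Gjc1, on chromosome 11 from 102799579 to 102819700 on the minus strand, was high in 1 group only. It was at 167, 230 and 180 CPM in Hand2_WT and at 114, 114 and 120 CPM in Hand2_del. It was at 112, 113 and 121 CPM in Tbx3_WT and at 115, 108 and 111 CPM in Tbx3_del. The 9 libraries outside Hand2_WT lay between 108 and 121 CPM, all below the lowest Hand2_WT library. The log2 fold change was -0.73 (SE 0.113, called) in the Hand2 comparison and -0.06 (SE 0.0523, not called) in the Tbx3 comparison. The Hand2 call ended without Hand2_WT replicate 3 and without Hand2_del replicate 1 or 3, at -0.78 to -0.72. Without the highest library, Hand2_WT replicate 2, it was -0.58 and still called.

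The comparison of both wild types was not itself used to pick the genes, but its libraries are part of the comparisons that were. Gjc1 was higher in all 3 Hand2_WT libraries than in Tbx3_WT, by 0.73 on the log2 scale (SE 0.111, edgeR adjusted p = 0.041). Over the alternatives the adjusted p was between 1.56e-08 and 0.125. The call ended in limma-voom and without any one of the 3 Tbx3_WT libraries or Hand2_WT replicate 3, at 0.71 to 0.77. In this comparison 0.753% of 16339 genes were called (0.355% higher and 0.398% lower), and Gjc1 was the only one of the 7. This result and the Hand2 result share the 3 Hand2_WT libraries, so they are not independent. Because the Hand2 result was known when the genes were picked, the p of Gjc1 here carries that choice and is a description too. Stage, colony, Prrx1-Cre and depth cannot be told apart between both wild types.

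None of the other members was called between the wild types by edgeR. Gjb2 (0.77, SE 0.253, adjusted p = 0.183) and Gjb6 (0.74, SE 0.334, adjusted p = 0.3) were higher in all 3 Hand2_WT libraries, by about as much as Gjc1 but with a larger SE, and Gjb2 was called by DESeq2. Gja4 was lower in all 3 (-0.21, SE 0.116, adjusted p = 0.385). These 3 genes and Gjc1 did not overlap between the wild types, where 24.4% of all genes did not (12.9% higher and 11.5% lower). Gja1 (0.05, SE 0.0492, adjusted p = 0.647), Gja3 (-0.09, SE 0.129, adjusted p = 0.743) and Gja5 (-0.04, SE 0.109, adjusted p = 0.886) overlapped. A p above the threshold with 3 libraries a group does not show that levels were alike.

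Genes next to Gjc1 were high in the same libraries. Ccdc43, whose gene ends 102 kb from Gjc1, was at 71.2, 89.7 and 70.2 CPM in Hand2_WT and at 37.3, 46.9 and 40.9 CPM in Hand2_del. It was at 44.6, 45.6 and 44.8 CPM in Tbx3_WT and at 45.6, 47.0 and 41.2 CPM in Tbx3_del. As with Gjc1, Hand2_WT alone was high and its replicate 2 the highest. Ccdc43 was called in the Hand2 comparison (-0.89, SE 0.117), under all 13 alternatives, and in the wild-type comparison (0.77, SE 0.0934), where the call ended without Tbx3_WT replicate 1 or 2. Adam11, a gene of the ADAM family between them, was at 22.3, 40.9 and 25.1 CPM in Hand2_WT and at 21.4, 14.7 and 18.5 CPM in Hand2_del. It was at 16.7, 16.3 and 18.9 CPM in Tbx3_WT and at 17.4, 13.4 and 15.5 CPM in Tbx3_del, with log2 fold changes of -0.70 (SE 0.244) and 0.76 (SE 0.218) and no call.

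Not all neighbours shared this. Eftud2, the next gene tested on the other side of Gjc1, averaged 314 CPM in Tbx3_WT, 310 in Hand2_WT and 284 in Hand2_del and was not called (-0.02, SE 0.0588, in the wild types, and -0.12, SE 0.0549, in the Hand2 comparison). Within 1 Mb, 51 other genes were tested in the Hand2 comparison with a median log2 fold change of 0.0943, and 2 were called higher (Mpp2 and Grn) and 5 lower (Ccdc43, Rprml, Lsm12, Ubtf and Gosr2), 13.7% against 10.5% of all genes. In the wild-type comparison 51 were tested with a median of 0.00579, and Ccdc43 was the only one called. Ccdc43 is named by the rule on likeness below. Adam11, the windows around Gjc1 and the other genes named in them were chosen after the values were seen.

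**Figure D5:**
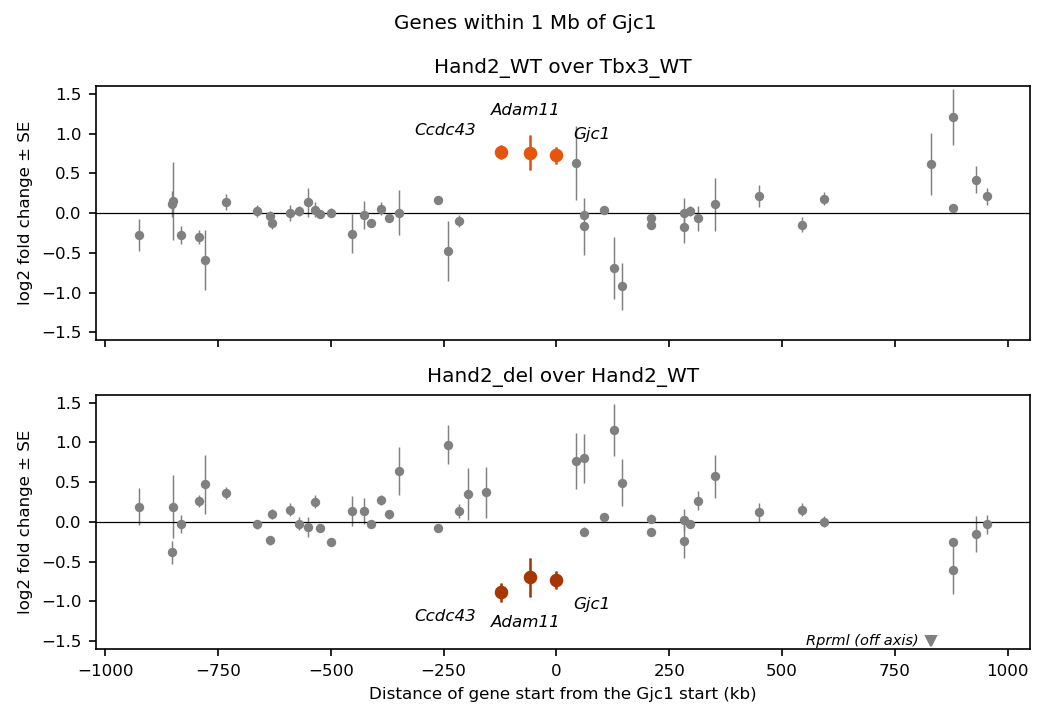
Log2 fold change with SE (vertical axis) of genes within 1 Mb of Gjc1, by the distance of each start from the Gjc1 start (horizontal axis, kb), for Hand2_WT over Tbx3_WT (top) and Hand2_del over Hand2_WT (bottom), for the 49 and 51 genes with an SE under 0.5. Ccdc43, Adam11 and Gjc1 lie together above 0 in the top panel and below 0 in the bottom panel, which share the Hand2_WT libraries. The triangle marks Rprml at -3.53, outside the axis.

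Among the other 13 connexins 3 had enough counts to be tested in the mutant comparisons, and Gjb5 and Gja6 are described here. Gjb5 was at 2.36 and 3.37 CPM in Tbx3_WT and Tbx3_del and at 1.94 and 1.58 CPM in Hand2_WT and Hand2_del, without a call. Gja6 was at or below 0.516 CPM in each library.

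Pannexins, channel proteins of a related shape that do not dock between cells in the same way, were led by Panx1. It was at 57.6 and 52.3 CPM in Tbx3_WT and Tbx3_del and at 54.1 and 51.1 CPM in Hand2_WT and Hand2_del, with no call. Panx2 was at 1.24 CPM or less in each library and not called. Of 19 genes for proteins that bind, phosphorylate or traffic connexins, all were tested. By edgeR none was called in the Tbx3 comparison, against 1.01% of all genes, and 2 were in the Hand2 comparison, against 10.5%. In the former 5 had an unadjusted p under 0.05, DESeq2 called 3 and limma-voom 0. Cav1, a scaffold of caveolae, rose from 6.8 to 14.8 CPM in Hand2_del (1.12, SE 0.161, edgeR adjusted p = 0.0138), a call kept under all 13 alternatives. In the Tbx3 series Cav1 was at 9.04 CPM in Tbx3_WT and 18.3 CPM in Tbx3_del (1.01, SE 0.219, not called). It was higher there without overlap, where 10.5% of all genes were.

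The gene whose pattern was most like each member was found by Pearson's r of log2 CPM over the 12 libraries after each series' mean was subtracted, among about 10820 genes. It was Srsf9 for Gja1 (r = 0.948), Cdc20 for Gja3 (0.946), Hdgfl3 for Gja4 (0.958) and Crabp2 for Gja5 (0.958). It was Lrch3 for Gjb2 (0.974), followed by Pax1 (0.97), Col12a1 for Gjb6 (0.969) and Pkig for Gjc1 (0.951), followed by Ccdc43 (0.95). These are the highest of many correlations over libraries that share their groups, and they are given as a description. Pax1, a paired box gene, averaged 5.38 CPM in Hand2_WT and 20.4 CPM in Hand2_del. Its libraries overlapped, at 1.12, 10.5 and 4.57 CPM in Hand2_WT and at 36.2, 8.78 and 16.3 CPM in Hand2_del.

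The effect of Hand2 loss minus that of the Tbx3 allele was computed in a fit of all 12 libraries, where 1.68% of 17360 genes were called. Gja3 (-2.26, SE 0.317), Gja4 (0.97, SE 0.146), Gja5 (1.24, SE 0.223) and Gjc1 (-0.67, SE 0.131) were called, and Gja1 (-0.05, SE 0.0665), Gjb2 (0.78, SE 0.495) and Gjb6 (1.35, SE 0.588) were not. The members were picked with both contrasts known, so this is a description as well.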

How the data were processed

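RNA of 12 forelimb bud pairs was sequenced, 3 per group. The authors deposited RSEM expected counts per gene, and the submitters' processing notes list FastQC 0.11.4, STAR 2.5.2, RSEM 1.3.0 and the build mm10. Whether counting used strand is not given in the sources used here. Groups and replicate numbers came from the labels. Identifiers were paired with symbols for 53360 of 53465 genes, and positions, exon lengths and shared words came from GENCODE M21 gene models of GRCm38.

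The expected counts were rounded. Genes passed filterByExpr at its defaults, a count of 10 and a total of 15. Each comparison was fitted on its own 6 libraries with edgeR 4.0.16 under R 4.3.3, using TMM factors and the quasi-likelihood F test. Calls are adjusted p-values under 0.05, by Benjamini-Hochberg across the whole table of genes that passed. The difference of effects used all 12 libraries. Log2 fold changes carry edgeR's prior count of 0.125, which pulls those of scarce genes toward 0. CPM is the rounded count per 1 M reads of the TMM-scaled library. The fits were tested on simulated data. Alternatives were RLE scaling, DESeq2 1.42.0, limma-voom 3.58.1, no low-count filter, a block for replicate numbers, embryo sex (from Xist and Y-linked genes) as a covariate, all 12 libraries in 1 fit, and leaving out each library. The same alternatives for called genes outside the 7 were chosen after seeing the data. Reads carry no molecular identifiers, and p-values measure the spread between these bud pairs.

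The members and gene lists were chosen with earlier results of these data known. All 7 members are named. Other connexins and pannexins are named where tested, partners where called, and of each marker list up to 3 genes, the most abundant and those called. The genes most like each member by correlation are also named. A few genes that these rules would name are not reported here.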

Additional observations from a re-analysis of the deposited data

Results flagged for a closer look

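In 4 of the 7 members the change in Hand2-deficient buds differed from that in Tbx3-deficient buds by the edgeR test of the difference itself over the 12 libraries. On the log2 scale the Hand2 change minus the Tbx3 change was -2.26 for Gja3, 0.97 for Gja4, 1.24 for Gja5 and -0.67 for Gjc1. The members were picked with both changes known, so these are descriptions. Stage, colony, Prrx1-Cre and depth differ between the series and cannot be told apart from the allele. The calls of Gja4, Gja5 and Gjc1 ended with a block for replicate numbers.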

How the results depend on the processing

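Of 273 alternative values for the 7 members in the 4 comparisons, 239 kept direction and call, 17 lost the call, 12 gained one and 5 changed sign. Gene counts moved more. The 153 genes called in the Tbx3 comparison became 551 in DESeq2, 99 in limma-voom, 504 without the low-count filter, 22 with embryo sex and 422 with all 12 libraries in 1 fit, and 23 to 220 without single libraries. The 1836 of the Hand2 comparison became 3491 in DESeq2 and 526 with embryo sex, and 218 to 2223 without single libraries. The 123 of the wild-type comparison became 902 in DESeq2 and 326 without the filter, and 36 to 165 without single libraries. RLE scaling gave 152, 1827 and 123.

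Sign changes came without single libraries. The Tbx3 value of Gja3 ran from -0.095 (without Tbx3_del replicate 1) to 0.45 and that of Gjb2 from -0.52 to 0.22 (without Tbx3_del replicate 2). In the wild-type comparison Gja3 ran from -0.17 to 0.032 (without Tbx3_WT replicate 2), and Gja5 from -0.10 to 0.050 (without Hand2_WT replicate 1), with 0.012 without Tbx3_WT replicate 3. The cause was not tested.

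The labels do not say whether replicate numbers pair the samples. Deviations of same-numbered libraries correlated at -0.127 to 0.0365 in the Hand2 series and -0.00935 to 0.0337 in the Tbx3 series. Those of differently numbered libraries correlated at -0.166 to 0.146 and -0.094 to 0.0746. With 3 libraries a group these values cannot show whether same-numbered libraries share a litter or batch, which was not tested. With the replicate block 87, 161 and 69 genes were called in the Tbx3 comparison, the Hand2 comparison and the difference of effects, against 153, 1836 and 292 without it. In the Hand2 comparison Gja3 kept its call with the block, while Gja4 (0.43) and Gjc1 (-0.72) lost theirs, as did Cdh5, Hey1, Pdgfrb, Cspg4, Fgf4, Fgf9, Xpo4 and 2410022M11Rik. These 8 lost it with embryo sex too. In the difference of effects the block gave 0.96 for Gja4, 1.27 for Gja5 and -0.66 for Gjc1, none called. Gjb6 had 12 to 24 counts per library in the Tbx3 series, and what depth adds to its SE was not tested.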

Other observations

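Other cell types and tissues that a dissected bud pair can carry were followed by summed CPM of marker lists, and no connexin result was tested against them. Macrophage markers were scarce, at 1.79 to 5.02 CPM in Tbx3_WT and 6.68 to 8.63 CPM in Tbx3_del, and at 4.39 to 7.3 CPM in Hand2_WT and 8.46 to 16.7 CPM in Hand2_del. Neither pair of groups overlapped, with both mutants higher. Neural crest and glia markers did not overlap either, at 59.4 to 67.3 against 80.2 to 102 CPM in the Tbx3 series and 50.6 to 65.9 against 70.2 to 73.4 CPM in the Hand2 series, wild type first. Muscle progenitor markers were at 132 to 158 CPM in Hand2_WT and 171 to 175 CPM in Hand2_del, and overlapped in the Tbx3 series. Body wall and coelomic markers were at 61.6 to 74.7 CPM in Hand2_WT and 102 to 115 CPM in Hand2_del, and their sums overlapped in the Tbx3 series as well. There the 6 tested had a median log2 fold change of 1.5, with 0 called. Of these, 2 were higher and 1 lower without overlap, where 10.5% and 9.91% of all genes were. Gata6 went from 11.4 to 33.5 CPM and Krt19 from 9.32 to 15.6 CPM, while Tbx18 went from 41.1 to 25.2 CPM. The overlap of the sums therefore does not show that these genes were alike. Markers of red cells overlapped in both series, between 2000 and 4590 CPM over the 12 libraries. Limb mesenchyme markers, which label most cells of a bud, were at 1900 to 2010 CPM in Hand2_WT and 2120 to 2520 CPM in Hand2_del.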
